A study of Mus musculus with 12 samples.

Results

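The genes described here are the 10 interleukin receptors and interleukin antagonists of a mouse liver array study: Il1r1, Il1r2, Il1rap, Il1rn, Il18bp, Il6ra, Il6st, Il4ra, Il10rb and Il2rg. They were found as the non-control spots whose gene name in the scanner files is one of these symbols. That gave 19 probes of the 41174 on the array, and each of the 10 genes had at least 1. To be tested, a probe had to exceed background clearly in every animal of 1 group or more. Of the 19 probes 17 did, so that all 10 genes are among the 19340 genes tested. Each gene is given by its probe with the brightest mean, and its other probes are given beside it.

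The study took livers from 12 adrenalectomized C57BL/6 mice at 11 weeks of age, and the females were in diestrus 1. The 4 groups, each of 3 animals, were males given dexamethasone, males given vehicle, females given dexamethasone and females given vehicle. Dexamethasone, a synthetic glucocorticoid, was injected intraperitoneally at 1 mg/kg, the vehicle was PBS, and livers were taken 6 h later. All 4 groups lacked adrenals, the glands that make most endogenous glucocorticoid. Each array held the RNA of 1 animal, from 500 ng of total RNA labelled with Cy3.

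Interleukins act through receptor chains on the cell surface. Interleukin-1 binds the signalling receptor IL1R1, which then recruits the accessory chain IL1RAP. The decoy receptor IL1R2 binds the same ligand but has no signalling domain, and the antagonist IL1RN occupies IL1R1 without starting a signal. IL18BP is a secreted protein that binds interleukin-18 and blocks it. Interleukin-6 binds IL6RA and then the shared signal transducer gp130, the product of Il6st, and in hepatocytes this pathway drives the acute phase response. IL4RA, IL10RB and the common gamma chain IL2RG are each shared by receptors of several cytokines, and these shared chains signal through JAK kinases and STAT factors.

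The sequences shown first are those of the probes behind the results, because a value on an array belongs to 1 stretch of 1 transcript. The pair of Il1r2 probes is shown because the second was too dim to test what the first showed, and the pair of Il6ra probes because they gave the same one. The sequences were read from the scanner files, 5′ to 3′, and their positions are those of the array design on mm7.
Il1r2, A_51_P470079, chr1:40362239-40362298, forward strand: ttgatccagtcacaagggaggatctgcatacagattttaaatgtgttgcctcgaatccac
Il1r2, A_52_P417890, chr1:40351196-40354143, forward strand, a probe whose span in the genome is longer than its 60 bases: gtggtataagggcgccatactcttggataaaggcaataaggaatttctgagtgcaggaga
Il6ra, A_51_P415855, chr3:90003321-90003380, reverse strand: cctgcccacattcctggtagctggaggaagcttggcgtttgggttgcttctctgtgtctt
Il6ra, A_51_P415863, chr3:90013069-90013128, reverse strand: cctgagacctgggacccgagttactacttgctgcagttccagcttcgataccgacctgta
The single Il2rg probe is shown because background correction decided the Il2rg call in males. The dimmer of the Il1rn probes is shown because it was not well above background in treated males.
Il2rg, A_51_P456952, chrX:96593038-96593551, reverse strand, also longer in the genome than its 60 bases: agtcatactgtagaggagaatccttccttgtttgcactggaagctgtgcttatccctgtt
Il1rn, A_51_P307166, chr2:24354826-24355846, forward strand, likewise: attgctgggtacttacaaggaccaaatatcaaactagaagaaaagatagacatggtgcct

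The unscaled 75th percentile of an array's signal ranged between 578.2 and 1251 intensity units, and the share of probes clearly over background between 65.7 and 72.2%. Values below are scaled intensities: each array was brought to the same 75th percentile of 845.9 units, so 1 probe can be compared between arrays but not with another probe. The arrays lay on 3 slides, all scanned on the same day. All 3 male vehicle arrays sat at position 1 of their slide, so that this position and that group cannot be told apart. Fkbp5, an early glucocorticoid receptor target that checks the treatment, was at 7212 to 7990 units in dexamethasone-treated males, against 203.7 to 656 in vehicle males, and at 5966 to 9187 units in dexamethasone-treated females, against 314.1 to 861 in vehicle females. The targets Tsc22d3 and Per1 had log2 fold changes of 1.54 and 1.28 in males and 1.76 and 1.24 in females, and Tsc22d3 passed the test in both sexes while Per1 did not (limma adjusted p = 0.052 and 0.078). Xist, the X-inactivation RNA, was well above background in all 6 females and in 0 of 6 males, as the labels say. Alb, which marks hepatocytes, was well above background on all 12 arrays, and RNA of immune cells was also present. Of 8 tested hepatocyte markers of 9 listed, 5 rose and 0 fell in males, and 4 rose and 0 fell in females. Over all genes, 10.4% rose in males and 6.79% in females. In bulk liver, fewer cells of a type and less RNA per cell cannot be told apart.

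Dexamethasone raised both interleukin-1 receptor chains, Il1r1 and the decoy Il1r2, and the interleukin-6 receptor Il6ra in livers of both sexes. It lowered Il10rb in both sexes, and in males it also lowered the antagonist Il1rn and the common gamma chain Il2rg. With normexp background correction, an alternative fit, only Il1r1 and Il6ra in both sexes and Il10rb in males kept their calls. Il2rg in males then turned to 0.22. The Il10rb call in females was also lost without any 1 female array, and the Il1rn call in males without any 1 of several male arrays. In females Il2rg lay near the threshold and passed it in some of the alternative fits. Il1rap, Il6st, Il4ra and Il18bp did not pass the test in either sex. In males 6 of the 10 genes passed limma's moderated test at an adjusted p under 0.05, where 22.5% of all genes did. Of these 3 were higher and 3 lower, against 10.4% and 12.1% of all genes. In females 4 passed, where 13.7% of all genes did, and 3 were higher and 1 lower, against 6.79% and 6.88% of all genes. Of all genes, 4.78% rose in both sexes, as 3 of the 10 did, and 5.57% fell in both, as 1 of the 10 did. The median log2 fold change of the 10 genes was -0.14 in males, against 0.01 over all genes, and -0.20 in females, against 0.02 over all genes. The values of treated and vehicle animals did not overlap for 7 of the 10 genes in males, where 43.5% of all genes had no overlap, and for 6 of the 10 in females, where 30.9% had none.

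**Figure D1:**
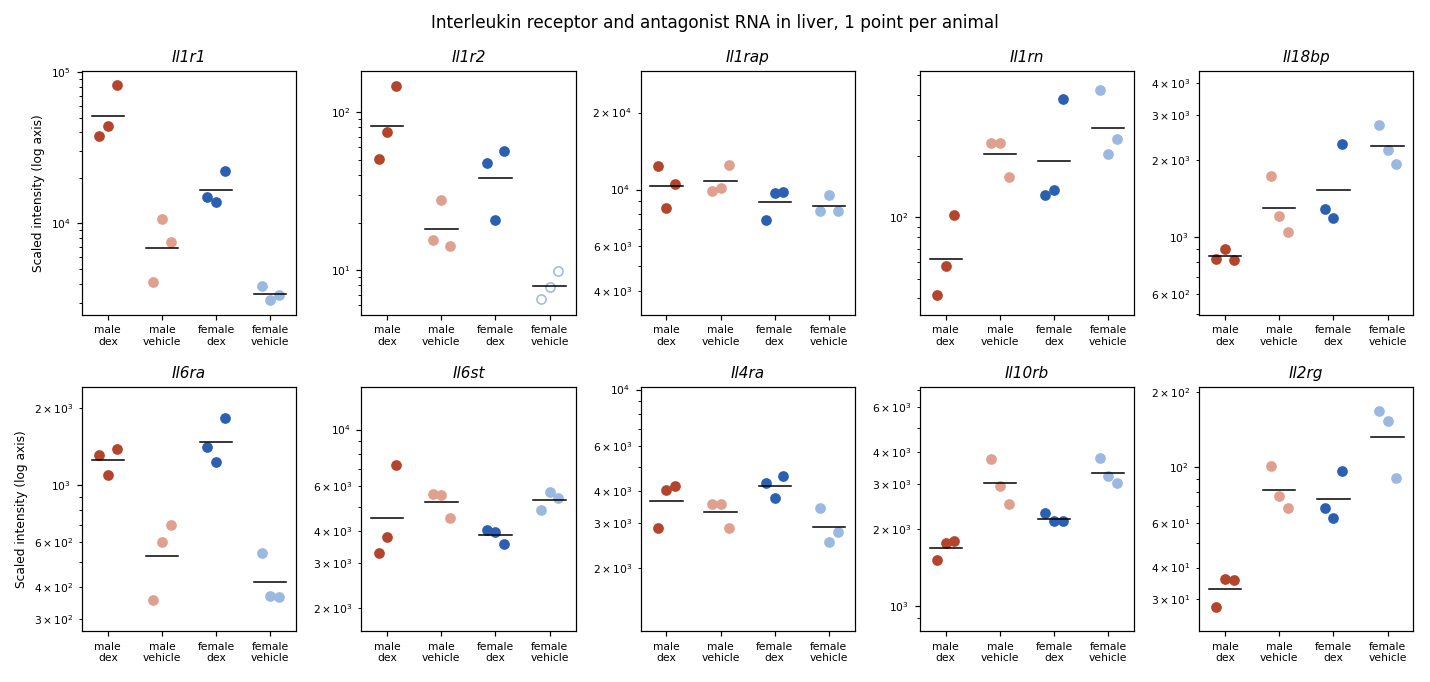
Scaled intensity of the brightest probe of each gene (log axis) in each of the 12 livers. Points are animals, from left to right replicates 1 to 3, lines are geometric means, and open points mark arrays where the probe was not well above background. All dexamethasone points of Il1r1, Il1r2 and Il6ra lie above the vehicle points of the same sex, and those of Il10rb lie below them.

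Il1r1, the receptor chain that transmits the interleukin-1 signal, had 1 probe, A_51_P271503, on chromosome 1 at 40555675 to 40555734 (mm7). It was at 37770, 44380 and 81720 units in dexamethasone-treated males, against 4073, 10650 and 7498 units in vehicle males. In dexamethasone-treated females it was at 14880, 13860 and 22130 units, against 3839, 3111 and 3368 units in vehicle females. Within each sex every treated animal was above every vehicle animal, and the highest value of all was that of male dexamethasone 3. The log2 fold change was 2.91 ± 0.36 in males (SE, n = 3 per group, limma adjusted p = 0.00065), a 7.5-fold difference. In females it was 2.28 ± 0.36 (SE, n = 3 per group, limma adjusted p = 0.0036), a 4.84-fold difference. Within single slides it was 3.45 and 2.38 in males and 2.16 and 2.24 in females. It passed in both sexes under every alternative that gives a test. With each array left out in turn, the lowest value was 2.53 in males and 2.07 in females.

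The decoy receptor Il1r2 rose as well. Its probe A_51_P470079 read 50.46, 74.52 and 146.3 units in dexamethasone-treated males, against 15.55, 27.6 and 14.28 units in vehicle males. In dexamethasone-treated females it read 47.51, 20.61 and 56.6 units, against 6.514, 7.827 and 9.807 units in vehicle females. The groups did not overlap in either sex, and in vehicle females the probe was well above background on 0 of 3 arrays. Its log2 fold change was 2.16 ± 0.45 in males (SE, n = 3 per group, limma adjusted p = 0.0074), a 4.48-fold difference. In females it was 2.26 ± 0.45 (SE, n = 3 per group, limma adjusted p = 0.0097). The 95% interval of the female value was 1.264 to 3.264. Because vehicle females were not above background, the mean of the treated arrays was also set against a background limit. That limit was the lowest signals that count as above background on the vehicle arrays. Where the probe itself read higher than the limit, its own reading was kept. On that basis Il1r2 was 3.96-fold higher in treated females, which is an estimate and not a minimum. With normexp background correction the call was lost in both sexes, at a log2 fold change of 1.53 in males (adjusted p = 0.13) and 1.29 in females (adjusted p = 0.25).

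The second Il1r2 probe, A_52_P417890, was too dim to test the rise. It was well above background on 1 of 12 arrays, that of male dexamethasone 3, at 195.1 units. The other treated males read 2.803 and 3.155 units and the treated females 2.664 to 5.755 units, against 1.881 to 2.28 units in vehicle males and 1.977 to 2.815 units in vehicle females. All treated males read above all vehicle males, but apart from male dexamethasone 3 these readings were not well above background. Xist, well above background in 0 males, read in the same order. It was at 2.358 to 2.911 units in treated males, against 1.752 to 2.158 units in vehicle males. In males the order of such low readings therefore says nothing of the rise. In females the probe overlapped, at 2.664 units in a treated against 2.815 units in a vehicle animal. Uty, well above background in 0 females, read 1.513 to 1.754 units in treated females, against 1.969 to 2.371 units in vehicle females. Ddx3y read in that order too, and Eif2s3y overlapped. Probe A_52_P417890 failed the filter on dim probes and was not tested. Male dexamethasone 3 was also the array with the highest value of the first probe, and its summed signal of 8 neutrophil markers was 3678 units, against 355.2 and 594.4 units in the other treated males. The part of neutrophil RNA in the Il1r2 values was not tested. Without that array the first probe still passed in males, at a log2 fold change of 1.74 (adjusted p = 0.024).

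**Figure D2:**
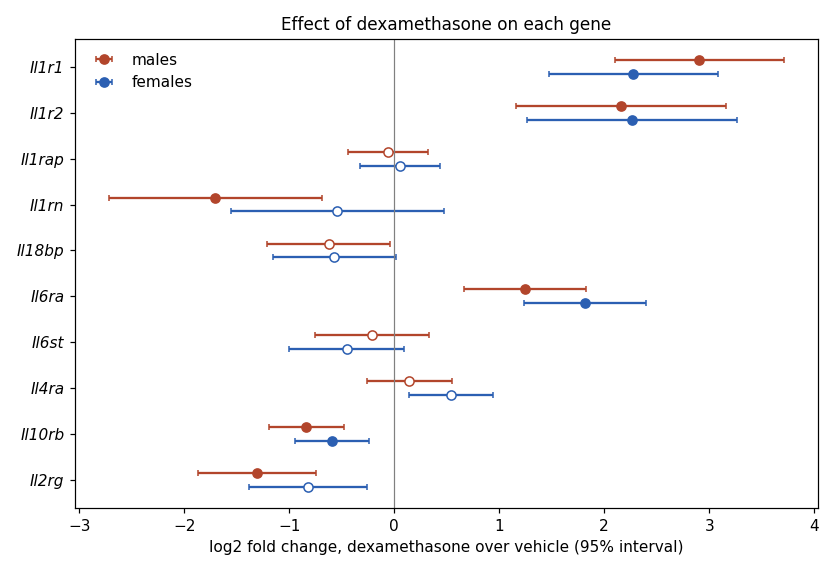
Log2 fold change of dexamethasone over vehicle for the brightest probe of each gene, in males (red, upper point) and females (blue, lower point), with 95% intervals from limma on 3 animals per group. Filled points passed at an adjusted p under 0.05; Il1r1, Il1r2 and Il6ra lie to the right in both sexes and Il10rb to the left in both.

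Il1rap, the accessory chain that IL1R1 needs to signal, showed no change that passed the test. Its brightest probe, A_52_P467232, was designed on another transcript record than A_51_P136742, and the isoform that each measures was not checked here. A_52_P467232 was at 8465 to 12347 units in treated males, against 9836 to 12461 units in vehicle males. In treated females it was at 7566 to 9815 units, against 8240 to 9505 units in vehicle females. Treated and vehicle animals overlapped in both sexes. Dexamethasone over vehicle gave a log2 fold change of -0.06 in males (95% interval -0.44 to 0.32) and 0.05 in females (95% interval -0.33 to 0.43). The intervals of this probe reach neither the rise of Il1r1 nor that of Il1r2. None of the 5 Il1rap probes passed the test over all probes in either sex, where 22.6% of probes passed in males and 13.7% in females. Among the 4 dimmer probes, the log2 fold change ran from -0.56 (A_52_P467814) to 0.52 (A_52_P153592) in males and from -0.02 (A_52_P467814) to 0.68 (A_52_P153592) in females. A_51_P136742 gave -0.39 in males (95% interval -0.89 to 0.11) and 0.26 in females (95% interval -0.24 to 0.75). It was well above background on 9 of 12 arrays, and on 1 of 3 arrays of treated males. Probe A_52_P153592 was well above background on 1 of 3 vehicle female arrays and 2 of 3 vehicle male arrays. It, A_52_P467814 and A_52_P207374 were designed on cDNA records whose isoform was not checked here.

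Il1rn encodes the interleukin-1 receptor antagonist. Its brighter probe, A_52_P431159, on chromosome 2 at 24357916 to 24357975 (mm7), was at 41.48, 57.64 and 102.8 units in dexamethasone-treated males, against 231.9, 233.4 and 157.8 units in vehicle males. In dexamethasone-treated females it was at 129.3, 137.1 and 382.3 units, against 420.8, 205.6 and 242 units in vehicle females. All treated males were below all vehicle males, while the females overlapped because female dexamethasone 3 was above 2 of the vehicle females. In males the log2 fold change was -1.71 ± 0.46 (SE, n = 3 per group, limma adjusted p = 0.023), a 3.26-fold lower level. In females it was -0.54 ± 0.46 (SE, n = 3 per group, limma adjusted p = 0.49). The female effect minus the male effect was 1.16, with a 95% interval from -0.27 to 2.60. The male call was lost in the fit that blocked on slide (adjusted p = 0.059), with either normexp correction (log2 fold change -0.28 and -0.88), or without male dexamethasone 1 or 2 or male vehicle 1 or 2 (adjusted p = 0.067 to 0.080).

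The dimmer Il1rn probe, A_51_P307166, was well above background on 0 of 3 arrays of dexamethasone-treated males. There it read 3.897 to 13.4 units, against 14.65 to 24.95 units in vehicle males. With treated male readings raised to the background limit described for Il1r2 where they lay below it, the probe was 1.60-fold lower in treated males. That is again not a minimum. Its test over all probes gave a log2 fold change of -1.22 (95% interval -2.34 to -0.10) and an adjusted p of 0.11. In treated females it read 14.59 to 40.94 units, against 17.24 to 40.11 units in vehicle females, and the groups overlapped.

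Il18bp, the secreted inhibitor of interleukin-18, did not pass the test. Its brighter probe, A_52_P577384, was at 816.6, 894.9 and 812 units in treated males, against 1735, 1206 and 1041 units in vehicle males, with no overlap. In treated females it was at 1286, 1181 and 2315 units, against 2728, 2194 and 1935 units in vehicle females, with female dexamethasone 3 inside the vehicle range. Il18bp had a log2 fold change of -0.63 ± 0.27 in males and -0.57 ± 0.27 in females (SE, n = 3 per group, limma adjusted p = 0.12 and 0.19). The second probe, A_52_P577386, gave -0.83 in males and -0.66 in females (limma adjusted p = 0.053 and 0.14 over all probes). Without female dexamethasone 3 both sexes passed, at -0.63 in males (adjusted p = 0.042) and -0.88 in females (adjusted p = 0.031).

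**Figure D3:**
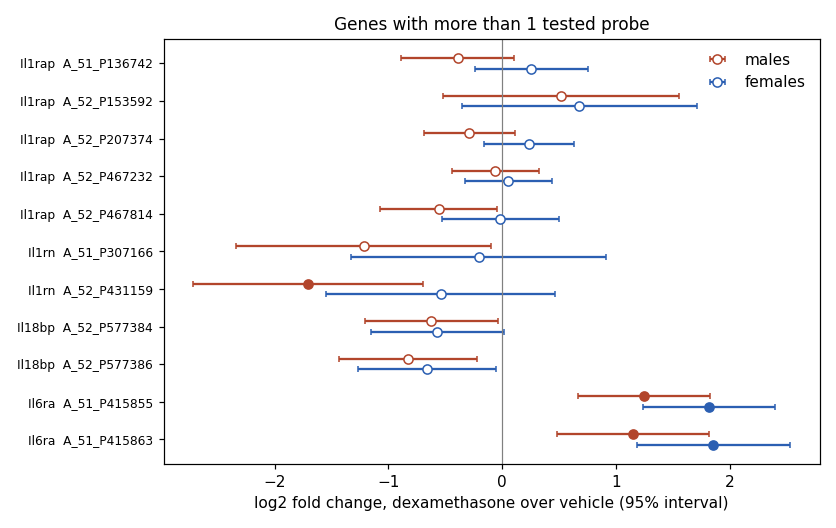
Log2 fold change of dexamethasone over vehicle for each tested probe of the 4 genes with more than 1 tested probe, in males (red, upper) and females (blue, lower), with 95% intervals from limma on 3 animals per group. Filled points passed over all probes; both Il6ra probes did so in both sexes, 1 of 2 Il1rn probes did so in males, and no probe of Il1rap or Il18bp did.

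Il6ra, the ligand-binding chain of the interleukin-6 receptor, rose on both of its probes in both sexes. Probe A_51_P415855 was at 1319, 1095 and 1390 units in dexamethasone-treated males, against 357, 598.9 and 703.3 units in vehicle males. In dexamethasone-treated females it was at 1415, 1237 and 1831 units, against 546.5, 369.5 and 365.2 units in vehicle females. Every treated animal was above every vehicle animal of either sex. On this probe the log2 fold change was 1.246 ± 0.26 in males (SE, n = 3 per group, limma adjusted p = 0.0077), a 2.37-fold difference. In females it was 1.81 ± 0.26 (SE, n = 3 per group, limma adjusted p = 0.0023), a 3.52-fold difference. The second probe, A_51_P415863, gave 1.15 in males and 1.85 in females (limma adjusted p = 0.021 and 0.0036 over all probes). Within single slides the first probe gave 1.62 and 1.18 in males and 1.74 and 1.56 in females.

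Il6st, whose product gp130 carries the interleukin-6 signal and is shared with other cytokines, did not pass the test. It was at 3305, 3817 and 7238 units in treated males, against 5622, 5570 and 4522 units in vehicle males. In treated females it was at 4043, 3994 and 3574 units, against 4829, 5688 and 5396 units in vehicle females. The treated males were split: male dexamethasone 3 was above all vehicle males, and the other treated males were below them, while treated females were all below vehicle females. Il6st had a log2 fold change of -0.21 ± 0.25 in males and -0.45 ± 0.25 in females (SE, n = 3 per group, limma adjusted p = 0.60 and 0.26). Without male dexamethasone 3 the male value was -0.55 (adjusted p = 0.035), and without male dexamethasone 1 it was 0.01.

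Il4ra, the chain shared by the receptors of interleukin-4 and interleukin-13, did not pass either. It was at 2879, 4065 and 4210 units in treated males, against 3563, 3571 and 2869 units in vehicle males, which overlapped. In treated females it was at 4325, 3762 and 4594 units, against 3443, 2533 and 2785 units in vehicle females, with no overlap. For Il4ra the log2 fold change was 0.14 ± 0.18 in males and 0.54 ± 0.18 in females (SE, n = 3 per group, limma adjusted p = 0.63 and 0.076). The female effect minus the male effect was 0.40 (95% interval -0.17 to 0.97).

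Il10rb, a receptor chain for interleukin-10 and interleukin-22 among others, fell in both sexes. Probe A_51_P406454, on chromosome 16 at 91476250 to 91476309 (mm7), was at 1522, 1767 and 1805 units in dexamethasone-treated males, against 3761, 2945 and 2504 units in vehicle males. In dexamethasone-treated females it was at 2322, 2149 and 2147 units, against 3791, 3225 and 3033 units in vehicle females. All 6 treated animals were below all 6 vehicle animals. The log2 fold change was -0.84 ± 0.16 in males (SE, n = 3 per group, limma adjusted p = 0.0047), a 1.79-fold lower level. In females it was -0.60 ± 0.16 (SE, n = 3 per group, limma adjusted p = 0.034), a 1.51-fold lower level. The female call was lost without any 1 of the 6 female arrays or without male vehicle 2 (adjusted p = 0.051 to 0.11). It was also lost in a fit that blocked on slide (adjusted p = 0.066), with normexp background correction (adjusted p = 0.099) and in a fit of the female arrays alone (adjusted p = 0.070). Its other probe, A_51_P344507, was well above background on 2 arrays and was not tested.

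Il2rg, the common gamma chain used by the receptors for interleukin-2, -4, -7 and others, was low in treated males. Its probe was at 27.96, 35.86 and 35.55 units in dexamethasone-treated males, against 101.5, 76.91 and 69.29 units in vehicle males. In dexamethasone-treated females it was at 68.83, 63.08 and 96.78 units, against 167, 153 and 91.18 units in vehicle females. The male groups did not overlap, while female dexamethasone 3 was above female vehicle 3. The log2 fold change was -1.31 ± 0.26 in males (SE, n = 3 per group, limma adjusted p = 0.0052), a 2.48-fold lower level. In females it was -0.82 ± 0.26 (SE, n = 3 per group, limma adjusted p = 0.057), which did not pass. It passed without female vehicle 3 (adjusted p = 0.020) or female dexamethasone 3 (adjusted p = 0.039), in the fit that blocked on slide (-0.96, adjusted p = 0.0495), with array weights (adjusted p = 0.021) and among probes above background on all 12 arrays (adjusted p = 0.048). With normexp background correction the male value was 0.22 (adjusted p = 0.79), and with the local background capped it was -0.43 (adjusted p = 0.13).

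IL2RG is made by lymphocytes, and IL1RN and IL1R2 by myeloid cells among others, so the markers of these cells are given beside those genes. Of all genes, 12.1% fell and 10.4% rose in males, and 6.88% fell and 6.79% rose in females. Of 7 tested B cell markers of 9 listed, 4 fell in males and 4 in females (Cd22, Cd79b, Fcrla and Ms4a1 in both), and Pax5 and Blk were not tested. The summed signal of the tested B cell markers was 239.5 to 388.2 units in treated males, against 757.3 to 1176 units in vehicle males. In treated females it was 306 to 617 units, against 744.8 to 1763 units in vehicle females. Of 16 tested T and NK cell markers of 17 listed, 7 fell in males, and 0 fell and 1, Klrb1c, rose in females. Their summed signal was 1666 to 2466 units in treated males, against 2564 to 3058 units in vehicle males, and 3601 to 4542 units in treated females, against 4565 to 5699 units in vehicle females. Both lymphocyte sums were lower in treated animals than in vehicle animals of the same sex, without overlap. For T and NK cell markers in females the gap was narrow, 4542 against 4565 units. A sum of this kind gives most weight to its brightest probes. Of 13 Kupffer cell and macrophage markers, Adgre1 and Lyz2 fell in males, and Cd163 rose in males and in females, which makes 2 lower and 1 higher in males and 1 higher in females. Their sum was 56570 to 72790 units in treated males, against 83230 to 131200 units in vehicle males, and 86380 to 165400 units in treated females, against 124900 to 192800 units in vehicle females. Of 8 tested neutrophil markers of 12 listed, 1, Csf3r, fell in males and 0 passed in females. In males, the counts that fell among Kupffer cell and macrophage markers and among neutrophil markers lie near the share of all genes. The neutrophil sum was 355.2 to 3678 units in treated males, against 1304 to 3117 units in vehicle males. In treated females it was 668.7 to 2454 units, against 2089 to 2523 units in vehicle females. Female dexamethasone 3, in which Il1rn, Il18bp and Il2rg were highest among treated females, also had the highest Kupffer cell and macrophage sum of that group, 165400 units. That was not particular to these markers. Its B cell, T and NK cell, neutrophil, endothelial, cholangiocyte and hepatocyte marker sums were the highest of the group too, and its stellate cell and fibroblast sum was not. Il1r1, Il1r2, Il1rap, Il6ra and Il4ra were also highest in it, while Il6st and Il10rb were lowest. The part of these cells in the results was not tested.

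The female and male responses were compared in 1 model. The difference between the sexes in the effect of dexamethasone passed for 0 of the 10 genes, where 0.00517% of all genes passed. At an unadjusted p under 0.05 it was 0 of the 10, against 1033 of all 19340 genes. The intervals were wide: for Il1r1 the female effect minus the male effect was -0.63 (95% interval -1.77 to 0.51), and for Il6ra it was 0.57 (95% interval -0.26 to 1.39). Levels of some genes differed between the sexes under dexamethasone in the main fit. Under dexamethasone 2 of the 10 genes passed, where 5.81% of all genes did. Il1r1 was lower in females, as 2.53% of all genes were, with a log2 difference, female minus male, of -1.64 ± 0.36 (SE, n = 3 per group, limma adjusted p = 0.029), and Il2rg was higher, as 3.27% of all genes were, at 1.19 ± 0.26 (SE, n = 3 per group, limma adjusted p = 0.025). The treated females and treated males did not overlap for 5 of the 10 genes, these 2 among them, where 26.5% of all genes had no overlap. The Il1rn difference was 1.59 ± 0.46 (limma adjusted p = 0.070, n = 3 per group) and was also without overlap.

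These sex differences rest on few arrays. With slide as a block, Il1r1 gave -1.57 (adjusted p = 0.11) and Il2rg gave 0.91 (adjusted p = 0.20), and only slide 1 held treated animals of both sexes, 1 of each, where the differences were -1.68 and 0.81. The Il1r1 call was lost without male dexamethasone 2 or 3 or female dexamethasone 1 or 2 (adjusted p = 0.059 to 0.098). The Il2rg call was lost without any treated array except female dexamethasone 2 (adjusted p = 0.050 to 0.080). With normexp background correction both calls were lost, at -1.61 for Il1r1 (adjusted p = 0.24) and 0.16 for Il2rg (adjusted p = 0.998). With the local background capped Il2rg gave 0.34 (adjusted p = 0.25). Of the T and NK cell markers, 7 of 16 were higher in treated females than in treated males, where 3.27% of all genes were. Under vehicle, 0 of the 10 genes passed, where 1.97% of all genes did, and the sexes did not overlap for 4 of the 10, where 20% of all genes had no overlap. At an unadjusted p under 0.05 there were 4 of the 10, against 2643 of all 19340 genes. Those were Il1r1 at -1.005, Il18bp at 0.80 and Il2rg at 0.70, female minus male (limma adjusted p = 0.24, 0.19 and 0.24), and Il1r2. The Il1r2 difference was -1.20 (95% interval -2.205 to -0.205, limma adjusted p = 0.26). With vehicle female readings raised to the background limit where they lay below it, Il1r2 was 1.90-fold lower there than in vehicle males, again not a minimum. Ordered by group mean, Il1r1 was highest in treated males, then treated females, vehicle males and vehicle females, and of the neighbours the vehicle groups did not pass the test. Treated females and vehicle males did not overlap, and that pair was not tested.

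For the 4 genes that passed in both sexes, the genes with the most similar profile over the 12 arrays were found by the root mean square difference of log2 values centred on each gene's mean. The nearest profile to Il1r1 was that of Il1r2, at 0.455 log2 units, followed by Tmc7 at 0.516 and Serpine2 at 0.545. The nearest to Il1r2 after Il1r1 were Tmem87b at 0.480 and Saa4 at 0.511. Il6ra was nearest to Piwil2 at 0.162, Shld2 at 0.209 and Atl2 at 0.227. Il10rb was nearest to Ptpn6 at 0.121, Zfp90 at 0.122 and Spag4 at 0.122.

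Since Il1r1 and Il1r2 lie on the same chromosome and moved together, the 250 bases before their annotated starts are shown, from RefSeq on GRCm38.p6, 5′ to 3′. Capitals mark the matches to the motifs searched on both strands: AGAACA, the half-site of the glucocorticoid response element, and TTCNNNGAA, the STAT-type palindrome. The complete palindrome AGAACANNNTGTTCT, which holds the half-site on both strands, was searched too.
Il1r1, first start, chr1:40224830-40225079, forward strand: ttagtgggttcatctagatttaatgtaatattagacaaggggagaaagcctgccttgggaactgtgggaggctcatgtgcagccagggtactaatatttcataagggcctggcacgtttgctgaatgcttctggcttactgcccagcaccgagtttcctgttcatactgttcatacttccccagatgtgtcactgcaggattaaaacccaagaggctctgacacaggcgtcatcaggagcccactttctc
Il1r1, second start, chr1:40266336-40266585, forward strand: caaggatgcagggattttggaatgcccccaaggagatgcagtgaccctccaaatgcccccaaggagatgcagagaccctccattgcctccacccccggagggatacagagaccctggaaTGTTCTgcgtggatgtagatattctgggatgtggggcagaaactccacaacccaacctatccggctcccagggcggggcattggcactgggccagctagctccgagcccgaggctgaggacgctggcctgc
Il1r2, chr1:40085843-40086092, forward strand: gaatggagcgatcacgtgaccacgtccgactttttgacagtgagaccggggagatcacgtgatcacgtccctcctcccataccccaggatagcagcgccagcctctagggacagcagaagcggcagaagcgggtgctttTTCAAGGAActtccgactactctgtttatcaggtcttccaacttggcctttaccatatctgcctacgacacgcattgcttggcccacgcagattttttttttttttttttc
Of the 10 genes, 9 had an entry, with 12 promoters in all. The complete palindrome was in 0 of the 12 and in 0.009% of all 32851 promoters. The half-site was in 3 of the 12, those of Il1r1 (second start), Il18bp and Il2rg, and in 16.1% of all promoters. TTCNNNGAA was in 1 of the 12, that of Il1r2, and in 7.02% of all promoters. A match here is a match of letters, and these windows say nothing of sequence farther away.

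The ligands of these receptors were then set beside them. Of 27 listed interleukin-family ligands 17 were tested, and 0 rose and 3 fell in males, while 0 rose and 2 fell in females. Of all genes, 12.1% fell in males and 6.88% in females. The median log2 fold change was -0.30 in males and -0.34 in females. Il1a, a ligand of IL1R1 and IL1R2, was at 22.22 to 30.42 units in treated males, against 54.31 to 90.21 units in vehicle males, a log2 fold change of -1.57 ± 0.32 (SE, n = 3 per group, limma adjusted p = 0.0070). Il1b, the secreted ligand of the same receptors, was at 18.6 to 106.2 units in treated males, against 184.1 to 314.7 units in vehicle males, a log2 fold change of -2.36 ± 0.67 (SE, n = 3 per group, limma adjusted p = 0.030). The male groups overlapped for neither. In females Il1b was at 45.42 to 249.4 units under dexamethasone, against 349.8 to 442.6 units under vehicle, but at -1.64 ± 0.67 it did not pass (limma adjusted p = 0.14, n = 3 per group). Il1a in females was at -0.51 (limma adjusted p = 0.35). In the main fit in males, then, both ligands and the antagonist read lower, and the signalling and the decoy receptor read higher. With normexp background correction the antagonist and the decoy lost their calls, at -0.28 and 1.53. No alternative fit is given here for the ligands.

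Il18, the ligand that IL18BP binds, was at -0.81 in males and -0.68 in females (limma adjusted p = 0.057 and 0.13). Il6 read 28.38 to 148.5 units in treated males, against 41.72 to 108.9 units in vehicle males, and 19.55 to 59.33 units in treated females, against 31.13 to 68.25 units in vehicle females. It overlapped in both sexes, at -0.19 and -0.29 (limma adjusted p = 0.88 and 0.82). The other ligands behind the counts, named after their values were seen, were Il16 at -0.42 in males (limma adjusted p = 0.034) and Il33 at -1.97 and Il7 at -2.79 in females (limma adjusted p = 0.037 and 0.0086). Il4 was at -0.10 in males and -0.0027 in females, Il13 at 0.09 and 0.22, and Il10 at -0.17 and -0.38, and none passed.

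Among 25 tested of 32 other interleukin-family receptors, 2 rose and 1 fell in males, and 1 rose and 0 fell in females. Cntfr, the binding chain for ciliary neurotrophic factor, which signals with gp130, rose in both, by 1.12 ± 0.17 in males and 0.84 ± 0.17 in females on the log2 scale (SE, n = 3 per group, limma adjusted p = 0.0014 and 0.0094). The others that passed, in males alone and named after their values were seen, were Il12rb1 at 1.14 and Csf2rb at -0.89 (limma adjusted p = 0.042 and 0.026). The median log2 fold change of these receptors was 0.10 in males and -0.02 in females. These shares can be set beside the 22.5% and 13.7% of all genes that passed in either direction.

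Inside the cell, 3 of 23 genes of interleukin-1 receptor signalling rose and 3 fell in males, and 2 rose and 2 fell in females, where 22.5% of all genes passed in males and 13.7% in females. Relb, an NF-kB subunit, fell by 1.86 on the log2 scale in males and by 1.38 in females (limma adjusted p = 0.00071 and 0.0053). Nfkb2, the precursor that pairs with Relb, fell by 0.66 and 0.70 (limma adjusted p = 0.034 and 0.038), and Tab2, an adaptor of the TAK1 kinase, rose by 0.67 and 0.75 (limma adjusted p = 0.019 and 0.017). Named after their values were seen, the others were Irak2 and Tab3 (higher) and Casp1 (lower) in males, and Map3k7 (higher) in females. Of 22 JAK-STAT genes, 2 rose and 5 fell in males and 1 rose and 5 fell in females, where 12.1% and 6.88% of all genes fell. Tyk2 and Jak2, kinases bound to chains such as gp130, were lower in both sexes, Tyk2 at -0.88 in males and -0.999 in females and Jak2 at -0.88 and -0.54 (limma adjusted p = 0.0013, 0.0012, 0.0016 and 0.024). Ptpn6, a phosphatase that restrains cytokine receptors and the gene nearest to Il10rb in profile, was at -0.62 and -0.52 (limma adjusted p = 0.0084 and 0.028). Others, also named after their values were seen, were Socs2 and Pias1 (higher) and Stat4 and Stat5b (lower) in males, and Socs7 (higher) and Jak3 (lower) in females.

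Of 25 acute phase genes, many of them targets of interleukin-6 or interleukin-1 in hepatocytes, 6 rose and 0 fell in males, and 3 rose and 0 fell in females. Of all genes, 10.4% rose in males and 6.79% in females. Lcn2, an iron-siderophore-binding protein, was at 3.61 ± 0.88 in males and 4.02 ± 0.88 in females on the log2 scale (SE, n = 3 per group, limma adjusted p = 0.015 and 0.014). Mt2, a metallothionein, was at 1.37 and 1.09 (limma adjusted p = 0.013 and 0.048). The third gene in females, named after its value was seen, was Lbp at 1.248 (limma adjusted p = 0.032). The median of the list was 0.21 in males and 0.23 in females.

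**Figure D4:**
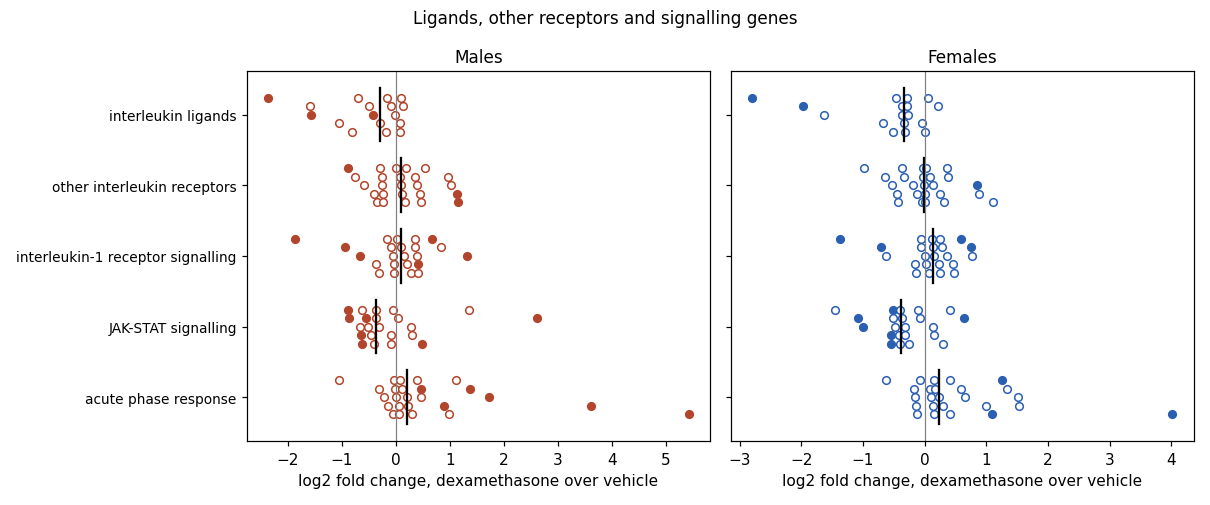
Log2 fold change of dexamethasone over vehicle for each tested gene of the ligands, the other receptors, the interleukin-1 receptor signalling genes, the JAK-STAT genes and the acute phase genes, in males (left) and females (right). Each point is 1 gene, filled where it passed at an adjusted p under 0.05, and black bars are the medians of the lists; no ligand rose in either sex and no acute phase gene fell.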

How the data were processed

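Liver RNA of 12 mice was measured on 1-colour Agilent arrays, with 3 animals in each of 4 groups. The authors deposited scanner output, a spot intensity in linear units, made with Agilent Feature Extraction 9.5 per the submitters' processing notes. The column used, the processed signal, is a background-subtracted intensity per the file headers, and the deposited series values are intensities that gave the same results. A flag column of the deposited files, of another unit (0 or 1), marks spots well above background. Strand and position of each probe are those of the array design on mm7.

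Outlier spots and controls were left out, spots of a probe were averaged, and log2 intensities minus each array's 75th percentile went into a linear model in limma 3.58.1, run in R 4.3.3 (4 group means over all 12 arrays, Benjamini-Hochberg over all 19340 genes or, for probes, all 28842 probes, adjusted p under 0.05). The script was tested on simulated data. The 5 comparisons were dexamethasone against vehicle in each sex, the difference of those effects, and female against male under each treatment. Alternatives covered background correction, scaling, the filter on dim probes, probe choice, array weights, slide or replicate number as a block, arrays of 1 sex, and each array left out. By rule, the genes named are all 10 members, 7 ligands, up to 5 per other list that passed the same way in both sexes, 3 check genes and Xist, and the 3 nearest profiles of each member that passed in both sexes. Further genes behind small counts, cell type markers (Alb among them), and Uty, Ddx3y and Eif2s3y were named outside the rule, after their values were seen. The members and all lists were chosen with earlier results of these data known. Number of animals limits precision, at 3 animals a group. The p-values rest on 1 spread per gene, shared by all 4 groups and moderated by limma over all genes, and not on the spread within a single group.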

Additional observations from a re-analysis of the deposited data

How the results depend on the processing

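Il1r1 and Il6ra kept their direction and their call in both sexes under every alternative. Under normexp background correction, 3 of the 10 genes passed in males, 2 in females and 0 in females against males under dexamethasone. Under that correction the median log2 fold change of all genes was 0.26 in males and 0.24 in females, against 0.012 and 0.020 without it, and it turned Il2rg in males to 0.22. With the local background capped, an alternative chosen after seeing the data, 1 gene passed in females against males under dexamethasone. With slide as a block 0 did. With replicate number as a block 1 did, and Il10rb in females had an adjusted p of 0.052 and Il2rg between treated females and males one of 0.056. Of 18 same-numbered pairs of arrays, 2 had a correlation over 0.1, in a range from -0.216 to 0.326. Pairs with different numbers were not compared, so these values cannot show whether the numbers carry a pairing. With 1 array left out, 3 to 5 genes passed in females, 5 to 7 in males, 0 to 2 in females against males under dexamethasone, and 0 in the remaining comparisons. Values near 0 changed sign. The female effect minus the male effect of Il18bp was -0.21 with array weights, -0.14 with normexp, -0.033 with the capped background and -0.13 with slide as a block. That of Il1r2 was -0.24 with either normexp setting and -0.079 with quantile normalization, and that of Il2rg was -0.23 with normexp and -0.041 with the capped background. Il1rap in females was -0.041 with array weights and -0.12 with normexp. With 1 array left out, the ranges that crossed 0 were -0.25 to 0.23 (Il18bp), -0.25 to 0.54 (Il1r2), -0.026 to 0.25 (Il1rap) and -0.47 to 0.10 (Il6st) for the difference of effects, -0.19 to 0.079 (Il1rap) and -0.55 to 0.012 (Il6st) in males, -0.012 to 0.18 (Il1rap) in females, and -0.44 to 0.12 and -0.081 to 0.088 (Il6st) for females against males under dexamethasone and under vehicle. Requiring signal above background on all 12 arrays left 9 genes, without Il1r2. The cause of these changes was not tested.

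Over all genes, 2644 passed in females, against 4036 with array weights, 538 with normexp and 1180 with female arrays alone, and 4359 in males, against 904 with normexp. Leaving out 1 array gave 1504 to 2568 in females and 2342 to 5026 in males, 455 to 1281 for females against males under dexamethasone, 158 to 436 under vehicle and 1 to 32 for the difference of effects. For females against males under dexamethasone, 1123 passed, against 2349 with array weights, 4233 without the filter on dim probes, 59 with normexp, 703 with replicate number as a block and 244 with slide as a block. Under vehicle 381 passed, against 742 with array weights, 90 with normexp and 244 with replicate number as a block. For the difference of effects 1 passed, against 2278 without the filter.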
